A study of Mus musculus with 11 samples.

Results

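Regulators of DNA methylation and of Polycomb repression were followed in RNA-Seq counts of mouse hematopoietic stem cells (HSC). These 10 genes, of 37991 counted, were chosen by symbol: Dnmt1, Dnmt3a, Dnmt3b, Uhrf1, Tet1, Tet2, Tet3, Ezh1, Ezh2 and Asxl1. All 10 passed the filter on low counts in each comparison. HSC were sorted as Lin-CD48-c-Kit+Sca1+CD135-CD150+ bone marrow cells of 8-week-old mice, in aliquots of 1000 cells, and every library is labelled C57BL/6. The 4 NA10hd libraries came from mice in which the NUP98-HOXA10HD fusion, inserted at ROSA26 behind a loxP-flanked stop cassette, is switched on by Vav-Cre. The 3 NV libraries came from mice with the LSL NrasG12D/+ allele and Vav-Cre, which puts the oncogenic Nras protein under the gene's own locus. Vav-Cre acts across the hematopoietic system, so neither allele was confined to HSC. The 4 control libraries are labelled wild type, and the study's methods call them littermates. Littermate controls of the study's other experiments carried the NA10hd allele with its stop cassette in place, and whether those of the RNA-Seq did is not given in the sources used here. The study calls the libraries of a population biological replicates, while the labels do not say whether the aliquots of a group came from separate mice. The p-values then measure the spread between aliquots, which may in part be technical.

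Cytosine methylation at CpG dinucleotides is copied to the new strand after DNA replication by Dnmt1, which Uhrf1 guides to half-methylated sites, while Dnmt3a and Dnmt3b can methylate unmethylated DNA. Tet1, Tet2 and Tet3 oxidise methylcytosine and so start its removal. Ezh2 and Ezh1 are the alternative catalytic subunits of Polycomb repressive complex 2 (PRC2), which methylates histone H3 at K27 and keeps genes silent, and Asxl1 is a partner of Bap1 in the enzyme that removes ubiquitin from histone H2A. In blood, DNMT3A, TET2 and ASXL1 are best known as genes mutated in clonal hematopoiesis.

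Total counts ranged from 5464815 to 14283008 per library, with a median of 10639180. The 9 HSC markers were expressed in every library, at summed levels of 2571 to 3136 CPM (counts scaled to library size and composition) in control libraries, 2941 to 3577 in those of NA10hd and 2302 to 2747 in those of NV. Cd48, excluded by the gate, stayed at or below 5.89 CPM, and Flt3 (CD135), also excluded by the gate, ran from 2.07 to 18.7 CPM with counts in every library. Cd3e, Il7r and Rag1 had 0 counts in all 11 libraries. The 5 erythroid markers summed to 18.4 to 24.9 CPM in control HSC, while the NA10hd libraries had 15.6 to 31.7 and the NV libraries 42.6 to 80.3. The 4 megakaryocyte markers summed to 67.9 to 93.6, 44.4 to 82.6 and 171 to 422 CPM in the same order. NA10hd replicate 4 had 216 counts of Xist and 0 Y-linked counts, whereas NA10hd replicates 1 to 3 had 0 counts of Xist and 1874 to 2619 Y-linked counts. Control replicates 1 and 4 also had 0 counts of Xist, and the remaining control libraries and the NV libraries held both kinds, and where these came from was not tested.

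Dnmt1, Uhrf1, Ezh2 and Ezh1 carried most of the differences described here, and start regions of these are shown first. At some or all of their starts, Dnmt1, Uhrf1 and Ezh2 held a short motif of varying letters, the E2F form. So did Asxl1, which was not called in any comparison. Ezh1 lacked it, and so did Dnmt3a, Dnmt3b, Tet1, Tet2 and Tet3. RefSeq promoter windows of 250 bases before and 50 bases after the transcription start (build GRCm38.p6) were found for all 10 genes, with 15 starts, and each window matched NCBIM37, the build of the counts, at exactly 1 place. Letters in capitals mark an E2F form, searched on either strand as TTCCCGC and also as TTGGCGC, next as TTCGCGC and last as TTGCCGC. E2F factors are known for switching on genes of DNA replication.

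Ezh2 (minus strand, NCBIM37 chr6:47544980-47545279): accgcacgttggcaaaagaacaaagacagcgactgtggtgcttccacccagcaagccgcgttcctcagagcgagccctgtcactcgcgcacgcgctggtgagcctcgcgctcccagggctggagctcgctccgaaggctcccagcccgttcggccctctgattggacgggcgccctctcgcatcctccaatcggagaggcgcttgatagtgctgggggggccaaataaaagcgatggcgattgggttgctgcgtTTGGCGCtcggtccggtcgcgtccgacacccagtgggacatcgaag
Ezh1 (minus strand, NCBIM37 chr11:101087728-101088027): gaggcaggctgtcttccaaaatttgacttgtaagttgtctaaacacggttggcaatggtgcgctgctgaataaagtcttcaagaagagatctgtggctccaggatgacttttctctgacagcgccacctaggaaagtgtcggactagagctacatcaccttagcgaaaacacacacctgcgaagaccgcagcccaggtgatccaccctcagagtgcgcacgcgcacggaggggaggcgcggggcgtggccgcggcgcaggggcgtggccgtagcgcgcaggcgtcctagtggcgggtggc
Dnmt1, the third start (minus strand, NCBIM37 chr9:20757018-20757317): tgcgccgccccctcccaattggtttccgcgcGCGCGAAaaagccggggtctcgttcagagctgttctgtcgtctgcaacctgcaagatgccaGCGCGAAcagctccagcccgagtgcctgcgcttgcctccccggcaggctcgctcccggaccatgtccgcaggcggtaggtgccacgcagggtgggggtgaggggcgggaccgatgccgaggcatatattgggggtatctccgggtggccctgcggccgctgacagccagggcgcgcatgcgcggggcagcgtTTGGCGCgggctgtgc
Uhrf1, the second start (plus strand, NCBIM37 chr17:56443486-56443785): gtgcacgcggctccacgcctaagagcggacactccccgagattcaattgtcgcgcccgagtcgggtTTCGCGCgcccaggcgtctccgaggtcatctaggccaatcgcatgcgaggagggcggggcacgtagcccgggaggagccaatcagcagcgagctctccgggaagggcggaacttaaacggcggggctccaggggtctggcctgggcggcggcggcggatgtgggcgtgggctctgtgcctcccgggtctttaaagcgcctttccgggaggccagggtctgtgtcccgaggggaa

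Of the 15 windows, 5 held an E2F form, against 9.57% of the 32851 RefSeq promoter windows, and they belonged to Dnmt1, Uhrf1, Ezh2 and Asxl1. The Ezh2 window held TTGGCGC from base 5 of the transcript. The window of the third Dnmt1 start held TTCGCGC on the other strand from positions -219 and -158 and TTGGCGC from base 35. That window lies within the annotated span of Dnmt1 (20711650 to 20757317), and the windows of the first and second Dnmt1 starts held no E2F form. CCAAT, on either strand, stood in 6 windows, those of Dnmt1, Uhrf1, Ezh2 and Tet3, against 37.4% of all windows. The cell cycle element called CHR (TTTGAA or TTCGAA, either strand) stood in 3 windows, of Dnmt1, Dnmt3b and Asxl1, against 19.2% of all windows. An E2F form that follows an A can overlap CCAAT on the other strand, which happened 0 times in these windows. The Ezh1 window held none of the 3 motifs, as did those of Dnmt3a, Tet1 and Tet2. A match describes the letters of a window and no binding was measured.

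**Figure D1:**
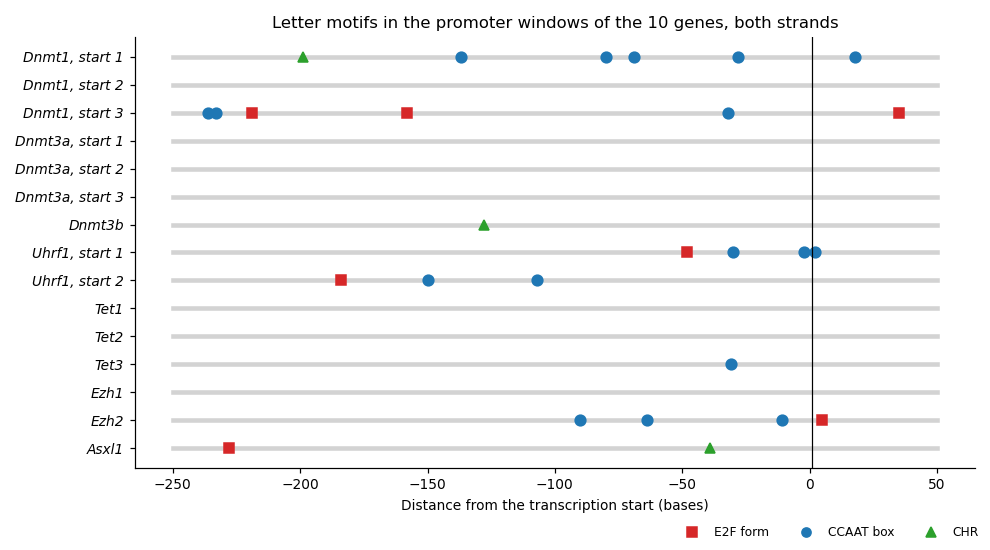
Position of each letter motif in the 15 promoter windows, in bases from the transcription start (vertical line), on either strand. Red squares are E2F forms, blue circles CCAAT boxes and green triangles CHR elements, and the windows of Ezh1, Tet1, Tet2, Dnmt3a and the second Dnmt1 start are empty.

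The first question was which of the 10 genes differ between each mutant genotype and control. A gene was called changed at a Benjamini-Hochberg adjusted p under 0.05 over all tested genes together with a fold change above 1.5, by the quasi-likelihood test of edgeR. In NV-HSC, Dnmt1 and Ezh2 rose, and 2 of 10 genes were thus called, against 4.76% of the 13462 tested genes. In NA10hd-HSC, 0 of 10 were called, where 0.00766% of the 13060 tested genes were (1 gene). NA10hd libraries differed more from each other than control or NV libraries did. The count of calls depends on that spread as well as on the size of the differences. At an unadjusted p under 0.05 there were 4 genes in NA10hd-HSC (Dnmt1, Tet1, Ezh1 and Ezh2), against 11.9% of tested genes. The same count in NV-HSC was 5 (Dnmt1, Uhrf1, Tet3, Ezh1 and Ezh2), against 19.5% of tested genes. With DESeq2, Ezh1 alone of the 10 was called in NA10hd-HSC, where that tool called 1.99% of genes, and limma-voom called 0 of the 10 and 0.0153% of genes. Both comparisons use the same 4 control libraries, so their values are not independent of each other. NA10hd and NV libraries were therefore also set against each other, and there Dnmt1, Ezh2 and Ezh1 were called, 3 of 10 against 5.09% of 13461 tested genes. In this direct comparison 5 genes had an unadjusted p under 0.05, against 19.5% of tested genes.

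The libraries of NA10hd and control did not overlap at 4 of the 10 genes (Dnmt1, Tet1, Ezh1 and Ezh2), which held for 7.82% of tested genes. NV and control libraries were apart at 5 genes (Dnmt1, Uhrf1, Tet3, Ezh1 and Ezh2), against 18.9% of tested genes. NA10hd and NV libraries were apart at 4 genes (Dnmt1, Uhrf1, Ezh1 and Ezh2), against 21.0% of tested genes. These counts rest on the same few genes throughout. The plots of levels by library and of fold changes show each gene in turn.

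**Figure D2:**
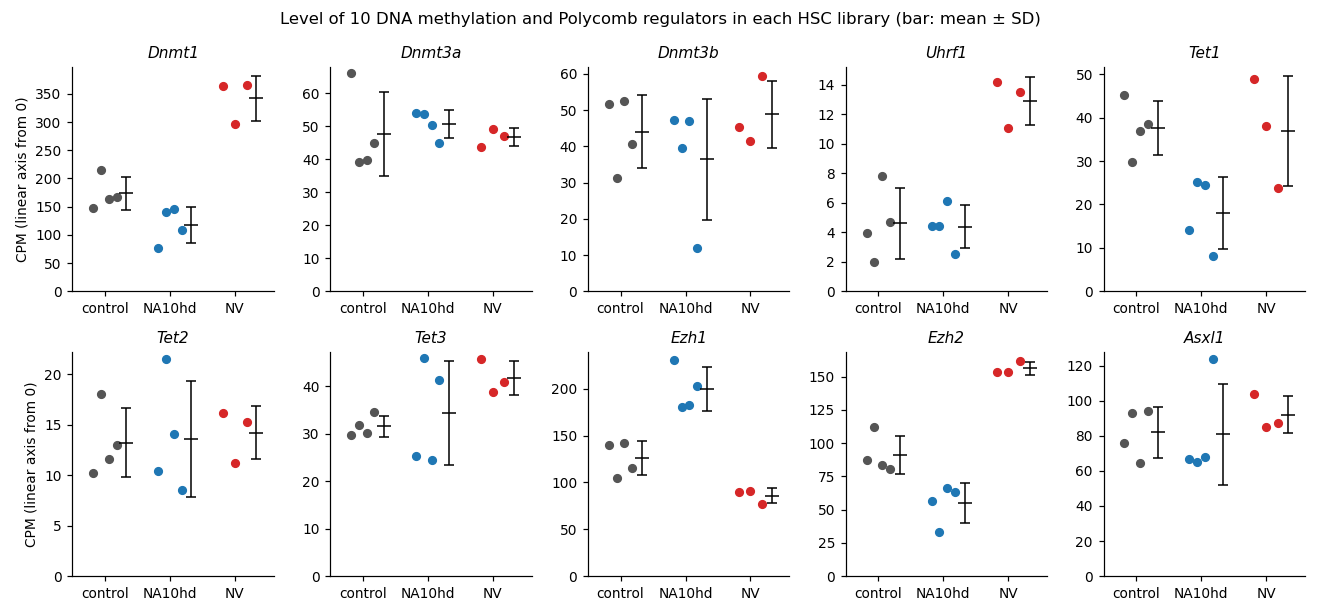
CPM (linear axis from 0) of each gene in each library of control (grey), NA10hd (blue) and NV (red), with the group mean ± SD as a bar. NV libraries lie above all others for Dnmt1, Uhrf1 and Ezh2 and below all others for Ezh1, while NA10hd libraries lie above all others for Ezh1.

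**Figure D3:**
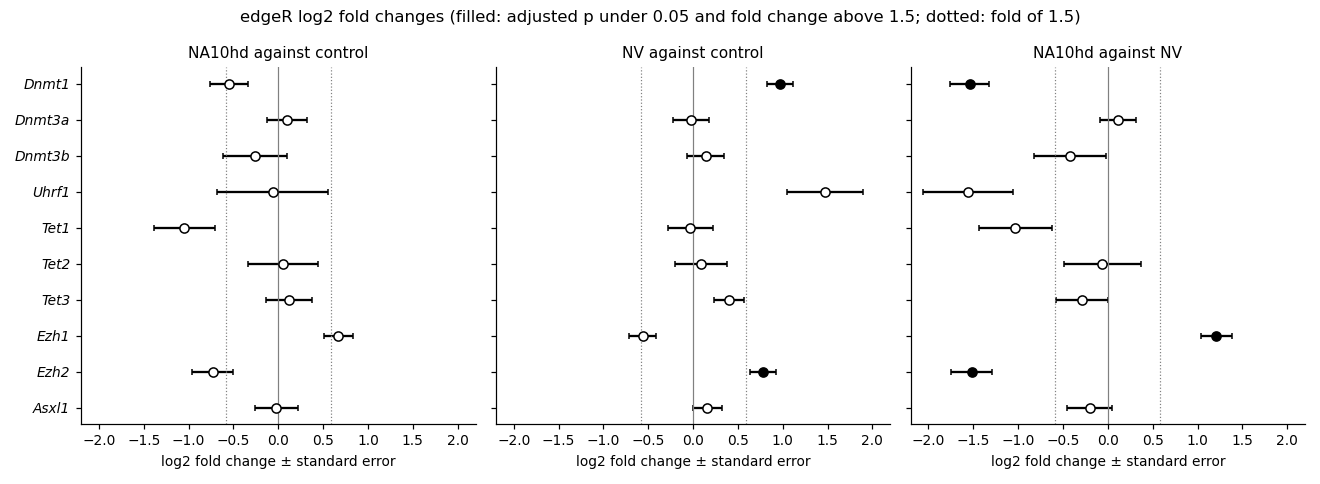
log2 fold change ± standard error of the 10 genes in the 3 comparisons, from edgeR, with called genes filled and dotted lines at a fold change of 1.5. Filled points are Dnmt1 and Ezh2 in NV against control, and Dnmt1, Ezh1 and Ezh2 in NA10hd against NV.

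Among the enzymes that write DNA methylation, the copying enzyme Dnmt1 (ENSMUSG00000004099, NCBIM37 chromosome 9, 20711650 to 20757317, minus strand) stood out. Its level was 148, 215, 164 and 167 CPM in control replicates 1 to 4. It was 76.6, 140, 147 and 109 CPM in NA10hd replicates 1 to 4, and 365, 297 and 365 CPM in NV replicates 1 to 3. Every NV library lay above every control library, and every NA10hd library lay below every control library, the closest pair being NA10hd replicate 3 and control replicate 1. Dnmt1 rose 1.96-fold in NV-HSC (log2 fold change 0.97, SE 0.14, adjusted p = 0.00225). In NA10hd-HSC the log2 fold change was -0.55 (SE 0.21), and the test was not passed (adjusted p = 0.351). Between the mutants, Dnmt1 was 2.90-fold lower in NA10hd-HSC than in NV-HSC (log2 fold change -1.54, SE 0.22, adjusted p = 0.00368).

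Uhrf1 (ENSMUSG00000001228, chromosome 17, 56442744 to 56462909, plus strand), which guides Dnmt1 to newly replicated DNA, was expressed far lower. It had 3.93, 1.99, 7.81 and 4.71 CPM in control and 4.42, 4.46, 6.14 and 2.55 CPM in NA10hd. The NV libraries had 14.2, 11.1 and 13.5 CPM, above every library of the other groups. These levels rest on 18 to 179 counts per library. The log2 fold change of 1.47 (SE 0.42) in NV-HSC did not pass the test (adjusted p = 0.0639), nor did that of -1.56 (SE 0.50) in NA10hd against NV (adjusted p = 0.102), which DESeq2 called (adjusted p = 0.0114) and limma-voom did not. The NV value was called by DESeq2 (adjusted p = 0.0198), by limma-voom (0.0446), with a minimum of 10 counts in every library (0.034) and without control replicate 3 (0.0203). Without each of the other 6 NV or control libraries in turn, its adjusted p ran from 0.0887 to 0.176. In NA10hd against control the log2 fold change was -0.06 (SE 0.62), with a standard error too large to place its direction.

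The de novo enzymes showed no such separation. Dnmt3a (ENSMUSG00000020661, chromosome 12, 3806007 to 3914443, plus strand) had 66.3, 39.1, 39.9 and 45.1 CPM in control, 54.1, 53.7, 50.4 and 45.0 CPM in NA10hd and 43.9, 49.3 and 47.2 CPM in NV. All 3 groups overlapped, and the log2 fold changes were 0.10 (SE 0.22) in NA10hd and -0.02 (SE 0.20) in NV against control. Its exons overlap those of other annotated genes over 133 bases. Dnmt3b (ENSMUSG00000027478, chromosome 2, 153475186 to 153513466, plus strand) had 51.7, 31.3, 52.4 and 40.6 CPM in control and 45.4, 41.6 and 59.4 CPM in NV. In NA10hd it had 47.2, 39.6 and 47.0 CPM in replicates 1 to 3 and 11.9 CPM in replicate 4. Replicate 4, the library with Xist counts and 0 Y-linked counts, was thus the lowest of all 11. With it the log2 fold change against control was -0.26 (SE 0.36), and without it 0.03 (SE 0.23), neither passing the test.

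Compared per kilobase of exon (RPKM), Dnmt1 made up most of the combined level of the 3 methyltransferases. Its share was 73.8% ± 6.86 (SD, n = 4) in control, 68.6% ± 11 (n = 4) in NA10hd and 84.0% ± 1.55 (n = 3) in NV. The control shares reached 82.8% and the lowest NV share was 82.7%, so these groups overlapped.

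The Tet dioxygenases differed among themselves. Tet1 (ENSMUSG00000047146, chromosome 10, 62267318 to 62361866, minus strand) had 45.1, 29.7, 37.0 and 38.6 CPM in control and 14.0, 25.1, 24.5 and 8.23 CPM in NA10hd. All NA10hd libraries lay below all control libraries. The log2 fold change was -1.05 (SE 0.34), which did not pass the test (unadjusted p = 0.00873, adjusted p = 0.287). Without NA10hd replicate 4, which was the lowest, the value was -0.81 (SE 0.28). NV libraries had 48.9, 38 and 23.8 CPM and spread across both other groups, with a log2 fold change of -0.03 (SE 0.25) against control.

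Tet2 (ENSMUSG00000040943, chromosome 3, 133126643 to 133207354, minus strand) ranged from 10.2 to 18.1 CPM in control libraries, 8.52 to 21.5 in those of NA10hd and 11.2 to 16.2 in those of NV. These ranges overlapped fully, and the log2 fold changes against control were 0.05 (SE 0.39) and 0.09 (SE 0.29). Tet3 (ENSMUSG00000034832, chromosome 6, 83312367 to 83391672, minus strand) had 29.7, 31.8, 30.2 and 34.6 CPM in control and 45.7, 38.8 and 40.8 CPM in NV. Every NV library was higher, but the log2 fold change of 0.40 (SE 0.17) did not pass the test (adjusted p = 0.224). The NA10hd libraries split into a low pair, 25.4 and 24.5 CPM in replicates 1 and 3, and a high pair, 46.0 and 41.4 CPM in replicates 2 and 4.

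The catalytic subunits of PRC2 differed in opposite directions between the mutants. Ezh2 (ENSMUSG00000029687, chromosome 6, 47480273 to 47545340, minus strand), known as the form of dividing cells, had 87.3, 112, 83.8 and 80.7 CPM in control. It had 56.4, 33.3, 66.6 and 63.2 CPM in NA10hd and 153, 154 and 162 CPM in NV, so the 3 groups did not overlap. Ezh2 rose 1.71-fold in NV-HSC (log2 fold change 0.78, SE 0.14, adjusted p = 0.00685). This call was lost in 2 alternatives, the fit of all 3 groups together (adjusted p = 0.103) and NV against the 2 control libraries that also held Xist and Y-linked counts, called matched libraries here (0.0722), at log2 fold changes of 0.78 and 0.67. In NA10hd-HSC the log2 fold change was -0.73 (SE 0.23, unadjusted p = 0.0069), short of the threshold (adjusted p = 0.282). Ezh2 was 2.87-fold lower in NA10hd-HSC than in NV-HSC (log2 fold change -1.52, SE 0.23, adjusted p = 0.00428). Its exons share 174 bases with an antisense transcript, Gm17629, and whether reads were counted by strand is not given in the sources used here.

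Ezh1 (ENSMUSG00000006920, chromosome 11, 101052429 to 101087777, minus strand), known as the form of resting cells, went the other way. It had 140, 105, 142 and 116 CPM in control, 231, 180, 183 and 203 CPM in NA10hd and 89.5, 90.9 and 76.6 CPM in NV. Again the 3 groups did not overlap, with NA10hd highest and NV lowest. Ezh1 was 2.31-fold higher in NA10hd-HSC than in NV-HSC (log2 fold change 1.21, SE 0.17, adjusted p = 0.00286). Against control, the log2 fold change in NA10hd-HSC was 0.67 (SE 0.16), with an unadjusted p of 0.00112 but an adjusted p of 0.201. DESeq2 called this value (adjusted p = 0.00964), and over the other alternatives its adjusted p ran from 0.0742 to 0.989. In NV-HSC the log2 fold change was -0.56 (SE 0.15) with an adjusted p of 0.0472, and its size, 1.47-fold lower, stayed under the fold threshold.

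The ratio of Ezh2 to Ezh1 per kilobase of exon brought these differences together within each library. It was 0.747, 1.28, 0.708 and 0.836 in control replicates 1 to 4. In NA10hd it was 0.293, 0.222, 0.437 and 0.374, and in NV 2.06, 2.03 and 2.54. Ezh1 was thus the more abundant transcript in every NA10hd library and Ezh2 in every NV library, while control libraries lay between, with control replicate 2 alone above 1. On the log2 scale the ratio was -0.20 ± 0.39 (SD, n = 4) in control, -1.64 ± 0.43 (n = 4) in NA10hd and 1.13 ± 0.18 (n = 3) in NV. A ratio within a library shows unequal levels and does not say which gene moved.

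Asxl1 (ENSMUSG00000042548, chromosome 2, 153171581 to 153229743, plus strand) had 75.6, 93.0, 64.6 and 94.2 CPM in control and 104, 84.9 and 87.3 CPM in NV. In NA10hd it had 66.5, 65.2 and 67.6 CPM in replicates 1 to 3, which were close together, and 124 CPM in replicate 4, the highest of all libraries. The log2 fold change in NA10hd-HSC was -0.02 (SE 0.24) with replicate 4 and -0.29 (SE 0.19) without it, and 0.16 (SE 0.16) in NV-HSC, none of which passed the test. Its exons share 197 bases with the antisense transcript 2500004C02Rik.

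Ordered by level per kilobase of exon, Dnmt1 led in control with 33 ± 5.52 RPKM, followed by Ezh1 (16.9 ± 2.46) and Ezh2 (14.7 ± 2.30), whose ranges overlapped. Asxl1 (11 ± 1.92) and Dnmt3b (8.62 ± 1.97) came next and overlapped each other. Dnmt3a, Tet3 and Tet1 lay at 2.56 to 2.86 RPKM with overlapping ranges, and Tet2 and Uhrf1 were lowest at 1.44 and 1.08 RPKM. In NA10hd, Ezh1 stood first at 26.8 ± 3.15 RPKM, its range overlapping that of Dnmt1 at 22.4 ± 6.12, and Ezh2 was the fourth at 8.85 ± 2.42. In NV, Dnmt1 at 65.0 ± 7.50 and Ezh2 at 25.2 ± 0.788 RPKM held the top places without overlap, and Ezh1 was the fourth at 11.5 ± 1.06. Uhrf1, at the tenth place in control and NA10hd, was the seventh in NV with 3.04 ± 0.387 RPKM.

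Since Dnmt1, Uhrf1 and Ezh2 are known to be expressed with the cell cycle, their levels were set beside 20 S phase genes and 15 G2/M genes in the same libraries. The S phase genes summed to 1899 to 2222 CPM in control libraries, 1069 to 1581 in those of NA10hd and 3137 to 3545 in those of NV. The G2/M genes summed to 200 to 495, 75.1 to 171 and 1206 to 1499 CPM in the same order. Neither sum overlapped between any of the groups, and both stood in the order of Ezh2. In NV-HSC 12 of 19 tested S phase genes and 14 of 15 G2/M genes rose and 0 fell, where 4.76% of all tested genes were called. In NA10hd-HSC 1 of 19 S phase genes, Rrm1, fell by edgeR, where 0.00766% of all tested genes were called. At an unadjusted p under 0.05 there were 9 of the 19, against 11.9% of tested genes, and 18 of the 19 values were below 0, with 4 called by DESeq2 (Mcm4, Mcm5, Rrm1 and Tyms) and 1 by limma-voom. In the same comparison 0 of 15 G2/M genes were called by edgeR, with 11 of the 15 at an unadjusted p under 0.05 against 11.9% of tested genes, 6 called by DESeq2 and 0 by limma-voom. In bulk samples, fewer cells that express a gene and less RNA of it per cell cannot be told apart.

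Relative to the S phase sum, the separation between groups was no longer seen. Ezh2 equalled 4.18% to 5.04% of that sum in control libraries, 2.49% to 6.23% in those of NA10hd and 4.33% to 4.89% in those of NV. Dnmt1 equalled 7.78% to 9.69%, 6.67% to 13.7% and 8.36% to 11.6%, and Uhrf1 0.0895% to 0.398%, 0.162% to 0.574% and 0.313% to 0.454%. All of these ranges overlapped. Those of NA10hd were the widest, for Dnmt1 (SD 3.34%, against 0.8% in control and 1.69% in NV) and for Ezh2 (1.57%, 0.391% and 0.301%). The erythroid and megakaryocyte marker sums were also higher in NV, and the part of the cell cycle or of these cells in the levels of Dnmt1, Ezh1 and Ezh2 was not tested.

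**Figure D4:**
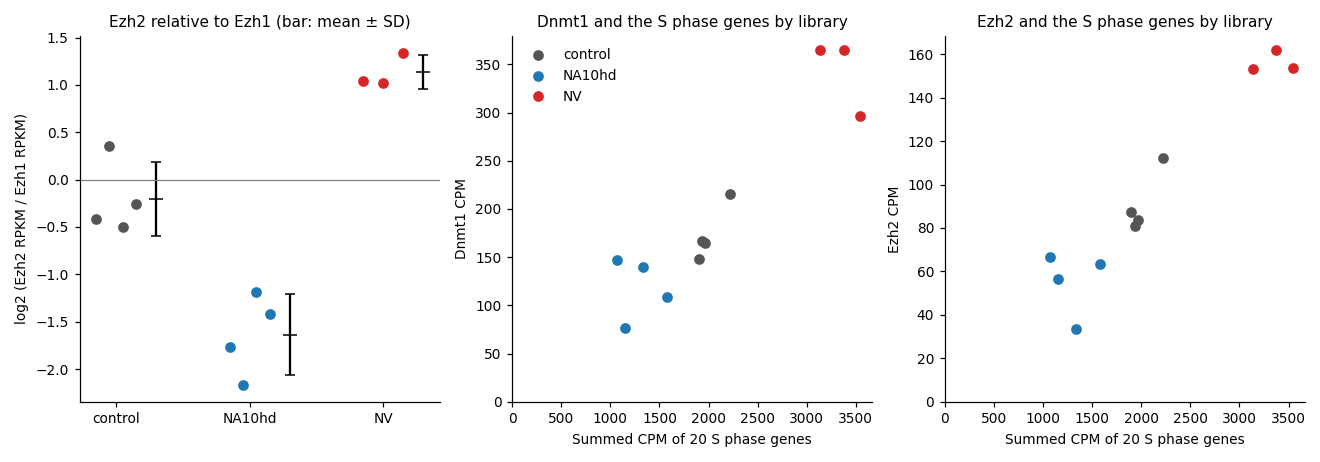
The left panel shows the log2 ratio of Ezh2 to Ezh1 per kilobase of exon in each library, with group mean ± SD as a bar, and the other panels set Dnmt1 and Ezh2 CPM against the summed CPM of 20 S phase genes. The NA10hd ratios (-2.17 to -1.19) lie below and the NV ratios (1.02 to 1.34) above all control ratios, and libraries with a higher S phase sum, those of NV, have the highest Dnmt1 and Ezh2.

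The genes whose log2 CPM followed each regulator most closely were listed over the 11 libraries, among 14013 genes, as a description in which groups, depth and composition are shared. For Dnmt1 these were Aspm (Pearson r = 0.975), a spindle protein, Gm10259 (0.963), a predicted gene whose reads may come from a related copy, and Cdt1 (0.963), which licenses replication origins. For Ezh2 they were Ran (0.961), the GTPase of nuclear transport, the mitotic cyclin Ccnb1 (0.955) and Topbp1 (0.949), a replication checkpoint protein. For Ezh1 they were Bex1 (0.982), Efnb2 (0.969), an ephrin ligand, and the imprinted gene Dlk1 (0.969). For Uhrf1 they were Ung (0.921), which removes uracil from DNA, Ufsp1 (0.906) and Mcm10 (0.874), a replication factor. The closest genes of the other 6 were Ak5 for Dnmt3a (0.86), Bcl2l2 for Dnmt3b (0.959), Dnajc13 for Tet1 (0.955), Trim65 for Tet2 (0.893), B3gntl1 for Tet3 (0.917) and Efhc2 for Asxl1 (0.924). Among the 10 regulators, Dnmt1 and Ezh2 ran together (r = 0.835) and Ezh1 ran against both (-0.953 with Dnmt1 and -0.88 with Ezh2).

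Around the 10 regulators, 69 further genes of the same pathways were listed, of which 65 were tested. Asxl3, Dnmt3l and Dppa3 were among those too low to test. In NV-HSC 2 rose and 2 fell, 4 of 65 against 4.76% of all tested genes. In NA10hd-HSC 0 were called by edgeR, 1 by DESeq2 (Kdm1b) and 0 by limma-voom, with 11 of 65 at an unadjusted p under 0.05 against 11.9% of all tested genes. Between NA10hd and NV, 2 were higher and 4 lower in NA10hd-HSC, 6 of 65 against 5.09%. The median log2 fold change of the 65 was 0.01 in NA10hd and 0.10 in NV against control and -0.07 between the mutants, where that of all tested genes was 0.02, -0.01 and 0.01.

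Partners of Dnmt1 at the replication fork were among the called genes. Lig1, the ligase that joins newly made DNA fragments, had 50.1, 66.8, 68.3 and 52.6 CPM in control, 42.8, 44.8, 51.1 and 50.2 in NA10hd and 124, 156 and 116 in NV, where every library was higher. It rose 2.21-fold in NV-HSC (log2 fold change 1.14, SE 0.16, adjusted p = 0.00212). Pcna, the sliding clamp that binds Dnmt1 during replication, had 311 to 327 CPM in NA10hd, 385 to 558 in control and 682 to 732 in NV, with no overlap. It rose 1.54-fold in NV-HSC (log2 fold change 0.63, SE 0.13, adjusted p = 0.0184). This call was lost in the fit of all 3 groups (adjusted p = 0.0508), with matched libraries (0.0888, at a log2 fold change of 0.41) and without each of 5 of the 7 libraries. Hells, a chromatin remodeller needed for DNA methylation, had 6.95 to 12.1 CPM in NA10hd, 10.8 to 34.1 in control and 30.7 to 67.2 in NV. It was 4.81-fold lower in NA10hd-HSC than in NV-HSC (log2 fold change -2.27, SE 0.34, adjusted p = 0.00407). Its partner Cdca7 (-0.88, SE 0.20), Lig1 (-1.49, SE 0.19) and Pcna (-1.18, SE 0.13) were also called lower. The Cdca7 call was lost without each NV library and without NA10hd replicates 2 or 3. In NV against control the Hells value of 1.10 (SE 0.34) was called by DESeq2 only of the 3 tools (edgeR adjusted p = 0.0891). Uhrf2, a relative of Uhrf1, was called between the mutants by limma-voom only (edgeR log2 fold change -0.58, SE 0.17, adjusted p = 0.0794). In all, 4 of the 8 tested other writers and cofactors were called between the mutants (5.09% of all tested genes), 2 in NV against control (4.76%) and 0 in NA10hd against control (0.00766%). At an unadjusted p under 0.05 the last comparison had 4 of the 8, against 11.9% of tested genes.

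Of the 9 other PRC2 subunits, Eed, Suz12 and Rbbp4 among them, 0 were called by edgeR in any comparison, where 0.00766%, 4.76% and 5.09% of all tested genes were called in NA10hd against control, NV against control and NA10hd against NV. At an unadjusted p under 0.05 there were 2 in NA10hd against control, 1 in NV against control and 3 in NA10hd against NV, where the shares over all tested genes were 11.9%, 19.5% and 19.5%. DESeq2 called Mtf2 and Phf1 between the mutants, 2 of the 9, and limma-voom called 0. Among 20 subunits of Polycomb repressive complex 1, which adds ubiquitin to histone H2A, Cbx6 and Bmi1 fell in NV-HSC, 2 of 20 against 4.76% of all tested genes. At an unadjusted p under 0.05 the complex had 2, 5 and 5 of 20 in NA10hd against control, NV against control and NA10hd against NV, where all tested genes had 11.9%, 19.5% and 19.5%. Cbx6, a subunit that reads methylated H3, had 105, 71.5, 88.2 and 101 CPM in control and 52.4, 59.8 and 57.0 in NV, apart from each other (log2 fold change -0.70, SE 0.16, adjusted p = 0.026). Bmi1, known for its need in HSC self-renewal, had 85.3 to 114 CPM in control and 57.9 to 76.9 in NV (log2 fold change -0.59, SE 0.16, adjusted p = 0.0477). Its range in NA10hd was wide, from 51.8 to 140 CPM. The Bmi1 value lay at the fold threshold and was called by neither DESeq2 (log2 fold change -0.58) nor limma-voom (-0.57). It also lost its call without a filter on low counts and without each of 6 of the 7 libraries, and DESeq2 called Phc3 in its place. Both Cbx6 and Bmi1 were no longer called in the fit of all 3 groups (adjusted p = 0.243 and 0.427) and with matched libraries (0.197 and 0.268). Cbx7, another reader of this mark, had 80.2 to 120 CPM in NA10hd and 33.3 to 58.3 in NV and was higher in NA10hd-HSC (log2 fold change 1.04, SE 0.25, adjusted p = 0.0375), and so was Cbx6 (1.13, SE 0.28, adjusted p = 0.0407). The Cbx7 call was lost without each NV library and without NA10hd replicates 2 or 3, and the Cbx6 call without each NV library.

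Calls on these neighbours depended in part on single libraries. In NV against control, leaving out any of the 3 NV libraries or control replicates 1 or 4 left Lig1 as the only gene of the 4 still called, and without NV replicate 1 Phc3 was called besides. Between the mutants the 6 became 3, Hells, Lig1 and Pcna, without any of the NV libraries and 10 without NA10hd replicate 1. The calls on Dnmt1 and Ezh2 in NV-HSC, and on Dnmt1, Ezh1 and Ezh2 between the mutants, held without each library in turn.

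edgeR called no gene in any comparison among 8 methyl-CpG readers, 9 tested demethylation cofactors, 9 tested H2A deubiquitination genes and 2 H3K27 demethylases. At an unadjusted p under 0.05 there were 0, 2, 1 and 0 genes of these lists in NA10hd against control, 1, 3, 3 and 1 in NV against control and 0, 2, 3 and 1 between the mutants, against 11.9%, 19.5% and 19.5% of all tested genes. DESeq2 called Kdm1b in NA10hd against control, and Idh1, Kdm1b and Kdm6b between the mutants, and limma-voom called 0 in these lists.

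**Figure D5:**
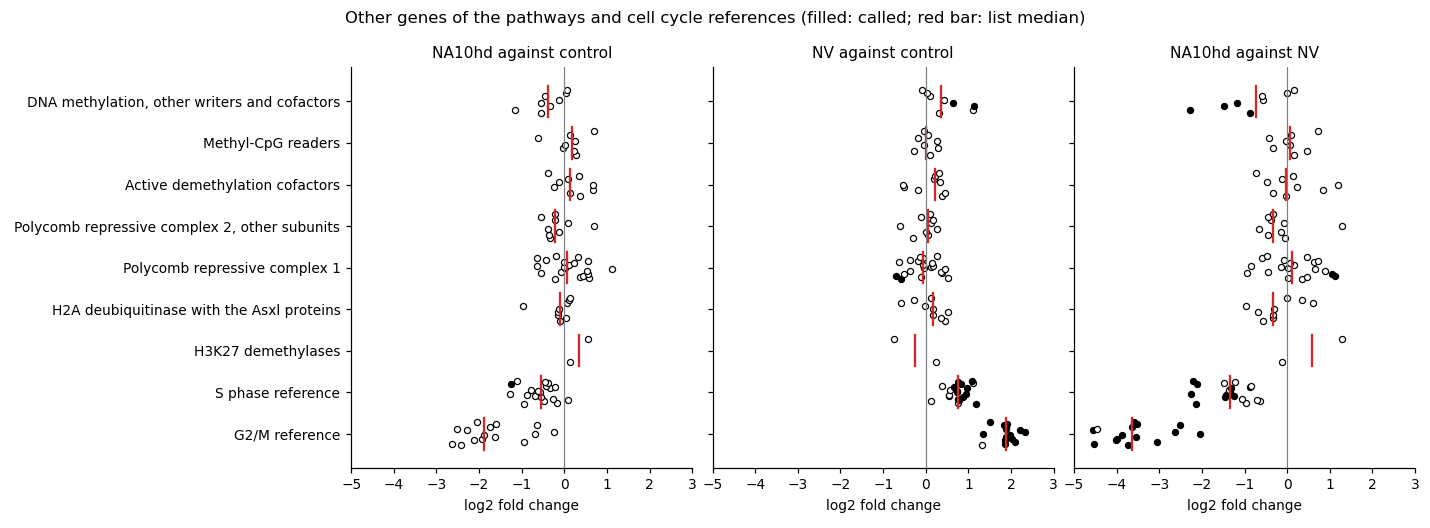
log2 fold change of each tested gene of the pathway lists and of the S phase and G2/M genes in the 3 comparisons, 1 circle per gene, filled where called, with the median of each list as a red bar. The other writers and cofactors have medians of -0.39, 0.36 and -0.73 in the order of the panels, and the G2/M genes medians of -1.88, 1.89 and -3.64.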

How the data were processed

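Raw counts from 11 libraries of sorted HSC were used: 4 control, 4 NA10hd and 3 NV, grouped by the genotype in their labels. The authors amplified cDNA from aliquots of 1000 cells, prepared libraries with Nextera XT for the NextSeq500 and aligned the reads to NCBIM37 with HISAT2. The deposited counts come from featureCounts, named in the submitters' processing notes, and are not normalized. Versions, strand setting and the handling of reads with several matches are not given in the sources used here. Amplified reads carry no molecular identifiers, so copies of a molecule are not independent counts. Symbols, positions and exon lengths came from GENCODE vM1 for NCBIM37, which held 37205 of the 37991 IDs, with 786 without a symbol. Promoter windows came from RefSeq (GRCm38.p6).

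Each comparison was fitted on its own libraries in edgeR 4.0.16 (R 4.3.3) by its quasi-likelihood test, after its default filter on low counts and TMM scaling, and p was adjusted by Benjamini-Hochberg over all tested genes. edgeR was used in place of the study's DESeq2, which served as an alternative. The standard error was the size of the log2 fold change divided by the square root of F. For CPM, each count was divided by the library's effective size (total and TMM factor, over all libraries), and RPKM were CPM per kilobase of merged exons. Likeness used log2 of CPM plus 1. Alternatives were DESeq2 1.42.0, limma-voom (limma 3.58.1), DESeq2 size factors in edgeR, no filter, a replicate block, a minimum of 10 counts per library, one fit of all 3 groups, no fold threshold, libraries matched for Xist and Y-linked counts, and each library left out. Simulated counts, with 200 genes changed by known amounts, were used to test the fits. A look for libraries deposited more than once found none, which does not show that they are biological replicates. Chi-square per degree of freedom between libraries of a group was 6.86 to 25.9 in control, 15.8 to 23.5 in NV and 41.9 to 66 in NA10hd. NA10hd libraries thus differed most from each other, and the part of this in the few calls against control was not tested. Figures were drawn with matplotlib 3.10.9.

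The 10 genes, the pathway and marker lists and the tests were chosen with earlier results of these data known. Genes were named as follows: the 10 regulators, the called genes of the pathway lists, the closest genes by correlation, of which 3 per regulator were computed and 1 or 3 are given, and the markers. Genes the other tools called in those lists were named after their values were seen. Eed, Suz12, Rbbp4, Asxl3, Dnmt3l and Dppa3 were named as examples of list members. No protein sequences were used here.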

Additional observations from a re-analysis of the deposited data

Results flagged for a closer look

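In a check of each regulator in each group of 4 libraries, 20 checks in all, 1 library lay beyond the 95% critical value of Dixon's test, far from the other 3 of its group. This was Asxl1 in NA10hd replicate 4, at 123.9 CPM against 65.2 to 67.6 CPM in replicates 1 to 3. By the level of that test, about 1 in 20 checks is met by chance. The same library was the lowest of the 11 for Dnmt3b, Tet1 and Tet2.

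The effects of the genotypes differed between NA10hd-HSC and NV-HSC at 3 regulators, by the direct edgeR test of NA10hd against NV. The log2 fold change was -1.54 for Dnmt1, -1.52 for Ezh2 and 1.21 for Ezh1. The 4 NA10hd libraries and the 3 NV libraries did not overlap at any of these, and all 3 calls held without each of the 7 libraries in turn.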

How the results depend on the processing

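Between NA10hd and NV, Dnmt1, Ezh1 and Ezh2 were called under every alternative that could be fitted. Matching for Xist and Y-linked counts could not be fitted there, since no NA10hd library held both. In NA10hd against control, the matched libraries were NA10hd replicates 1 to 3 and control replicates 1 and 4, all with 0 counts of Xist. In NV against control, Dnmt1 was called under every alternative, while the number of regulators called, 2 in the report, was 1 with all 3 groups in one fit and 1 with matched libraries. It was 3 with DESeq2, limma-voom or at least 10 counts in every library, which added Uhrf1, and 3 with no fold threshold, which added Ezh1. It was 2 to 3 with a library left out. In NA10hd against control it was 0 to 0 with a library left out and 1 with DESeq2, which also called 1 of the wider pathway genes. Of the wider genes in NV against control (4 in the report), 1 was called in the fit of all 3 groups, 1 with the replicate block (Lig1), 1 with matched libraries and 1 to 4 with a library left out. Between the mutants (6 in the report), DESeq2 and the fit of all 3 groups called 11 each, and 3 to 10 were called with a library left out.

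Replicate numbers do not pair the libraries: deviations of same-numbered libraries correlated at -0.087 to 0.026. The replicate block uses only numbers found in both groups, so it also drops control or NA10hd replicate 4 where NV is compared. It left the regulators called at 0, 2 and 3, ended the call of Cbx7 between the mutants, and gave 442 calls over all genes in NV against control, where 641 became 498 without control replicate 4 alone, which also left Lig1 as the only wider gene called. Among all genes, NA10hd against control gave 1 call, 240 with DESeq2, 2 with limma-voom, 8 without the filter or with at least 10 counts in every library, 39 in the fit of all 3 groups and 0 with the block or with matched libraries. NV against control gave 641, 1015 with DESeq2, 155 in the fit of all 3 groups and 301 with matched libraries. NA10hd against NV gave 685, 1495 with DESeq2 and 1152 in the fit of all 3 groups.

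Direction turned only for log2 fold changes that were not called in the report. In NA10hd against control with matched libraries, the values were -0.08 for Dnmt3a, -0.004 for Tet3 and 0.21 for Uhrf1, and Uhrf1 was at 0.06 with limma-voom and 0.02 with the block, where Tet2 was at -0.004. In NV against control with matched libraries, they were 0.24 for Dnmt3a (0.07 with limma-voom), 0.14 for Tet1 and -0.07 for Tet2. Tet2 was at 0.07 in NA10hd against NV with the block. With a library left out, the ranges in NA10hd against control were -0.42 to 0.03 (Dnmt3b), -0.32 to 0.32 (Uhrf1), -0.26 to 0.24 (Tet2), -0.06 to 0.25 (Tet3) and -0.29 to 0.07 (Asxl1). In NV against control they were -0.11 to 0.17 (Dnmt3a), -0.02 to 0.25 (Dnmt3b), -0.29 to 0.20 (Tet1) and -0.02 to 0.28 (Tet2), and for Tet2 between the mutants -0.36 to 0.11. The cause was not tested. Of the regulators, Uhrf1 had the lowest counts, 18 to 179 per library.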

Other observations

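Other chromatin enzymes were listed after the results on the 10 regulators were known. Of 8 H3K9 methyltransferases and HP1 proteins, which mark and bind silent chromatin, Suv39h1 rose in NV-HSC (log2 fold change 0.78, SE 0.14, adjusted p = 0.00685) and Cbx5, the HP1 alpha protein, was lower in NA10hd-HSC than in NV-HSC (-0.82, SE 0.18, adjusted p = 0.0276). Of 5 genes of the Nsd, Setd2 and Dot1l group, which methylate histone H3 in transcribed genes, Dot1l rose in NV-HSC (0.70, SE 0.16, adjusted p = 0.0271). Of 11 histone deacetylases, Hdac6 was lower (-1.07, SE 0.24, adjusted p = 0.0288) and Hdac11 higher (1.06, SE 0.21, adjusted p = 0.0178) in NA10hd-HSC than in NV-HSC. DESeq2 also called Hdac4 and Hdac6 in NV against control, and limma-voom also called Suv39h1 between the mutants. Of 11 H3K4 methyltransferase genes of the Kmt2 and Setd1 families and their partners, 0 were called in any comparison by edgeR, DESeq2 or limma-voom, with 2, 0 and 2 at an unadjusted p under 0.05 in NA10hd against control, NV against control and NA10hd against NV. In the last 2 comparisons, where 19.5% of all tested genes passed that level in each, the H3K9 and HP1 list had 3 and 4 of 8, the deacetylases 5 and 2 of 11 and the Nsd, Setd2 and Dot1l group 2 and 0 of 5. In NA10hd against control, 0 genes of the 4 lists were called by any of these tools, with 0 of 8, 0 of 5, 2 of 11 and 2 of 11 genes, in the order given, at an unadjusted p under 0.05, against 11.9% of all tested genes. Over all tested genes, edgeR called 4.76% in NV against control and 5.09% in NA10hd against NV.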
